A study of Mus musculus with 24 samples.

Results

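Naive PU.1 SpiB double knockout (DKO) B cells were compared with naive PU.1 conditional knockout (cKO) B cells by RNA-seq, 2 groups that both carry the floxed allele of PU.1 and the Cre recombinase and that differ in the Spib allele. The comparison took in the 12193 of 27179 genes in the deposited counts table that reached 0.5 CPM (counts scaled to the library total) in at least 2 of the 4 libraries, 2 libraries from each genotype. At the edge of that filter the second-highest library held 0.503 CPM for Gm8817, which was kept, and 0.497 CPM for Fzd9, which was left out. The 4 libraries belong to a series of 24, in which 4 genotypes were each sequenced in duplicate as naive cells, after 48 h with CD40L + IL-4 and after 48 h with LPS + IL-4. PU.1 cKO mice were Spi1 fl/fl Cd23 T/+ and PU.1 SpiB DKO mice were Spi1 fl/fl Cd23 T/+ Spib-/-. Control mice were Cd23 T/+ and SpiB KO mice were Spi1 fl/fl Cd23 +/+ Spib-/-, so the latter carried no Cre. All were on a C57BL/6 background and between 6 and 20 weeks of age. Cre was expressed from a BAC transgene under the regulatory sequences of Cd23 (Fcer2a), which act from the transitional stage of B cell development, and the Spib allele was null in every cell of the animal. Cells were taken from lymph node and sorted as CD3- B220+ CD138-.

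PU.1, encoded by Spi1, and SpiB, encoded by Spib, are closely related Ets transcription factors that recognise the same purine-rich DNA motif around a GGAA core. In B cells both can bind DNA together with IRF4 or IRF8 at composite Ets-IRF elements. B cells express SpiB throughout their development and lose it on plasma cell differentiation. Plasmacytoid dendritic cells (pDCs), which share the surface marker B220 with B cells, also express it.

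The 4 libraries held 15901491 and 15861951 counts (PU.1 cKO) and 16094209 and 17594007 counts (PU.1 SpiB DKO), so depth was similar in both groups. Replicates differed by more than counting noise in each group, with Pearson's r between log2 CPM across genes of 0.989 for PU.1 cKO and of 0.987 for PU.1 SpiB DKO. The B cell genes Cd79a and Cd79b were abundant in all 8 naive libraries, with at least 40784 counts for Cd79a in each. The T cell receptor subunits Cd3e, Cd3d and Cd3g had at most 20 counts, the neutrophil gene S100a8 at most 3 and the macrophage gene C1qa at most 16 in any naive library. Other genes of such lineages were not absent. The pDC gene Siglech had 336 to 4346 counts, the T cell gene Cd8a 33 to 4424 and the NK cell gene Ncr1 53 to 233. Each of the 8 libraries held reads of both Xist (505 to 2165 counts) and the Y-linked Ddx3y (361 to 1152 counts). Both PU.1 cKO libraries also stood apart in the major histocompatibility (H2) region, as described first.

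H2-Ea-ps, annotated as a pseudogene because C57BL/6 mice do not express the E alpha chain of MHC class II, reached 2524 and 2213 CPM in the PU.1 cKO libraries. It lay at 0.369 and 0.842 CPM in PU.1 SpiB DKO, 0.21 and 0.142 CPM in control and 0.536 and 0.81 CPM in SpiB KO. PU.1 cKO was thus the only one of the 4 naive genotypes with this transcript above 1 CPM, and the log2 fold change, PU.1 SpiB DKO over PU.1 cKO, was -11.88 (SE, the standard error, 0.27; edgeR adjusted p = 2.49e-08). The class I genes H2-Q2 (135.7 and 138.9 CPM in PU.1 cKO, against 1.11 and 0.632 CPM in PU.1 SpiB DKO), H2-Q10 (131.7 and 145 against 3.2 and 2.53 CPM) and H2-K2 (197.4 and 204.3 against 3.69 and 3.9 CPM) followed the same pattern. So did H2-M2, Gm8909, Gm11127, Gm8815 and Rps15a-ps8, with log2 differences of -8.17, -4.82, -6.19, -7.09 and -6.25. Between the first and the last H2 gene on chromosome 17 (33938909 to 37483554, GRCm38), 27 of 117 genes (23.1%) passed the test used below, and 19 of those were lower in PU.1 SpiB DKO. Outside that stretch of chromosome 17 the share was 68 of 514 (13.2%). The change differed from that of SpiB KO against control for 12 of the 117 genes (10.3%), where 0.976% of all genes did so. These paralogs share sequence, so uniquely mapped reads may be split unevenly between them. PU.1 cKO is also the only one of the 4 genotypes that joins floxed Spi1 and Cre with intact Spib. An effect of that genotype cannot be told apart from other differences between the mice. The H2 alleles that the mice carry were not tested.

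Of the 12193 genes, 1606 (13.2%) were differentially expressed (DE), meaning a Benjamini-Hochberg adjusted p below 0.15 in edgeR's quasi-likelihood test and a change of more than 1.5-fold. Of these 1606, 1234 (10.1%) were higher and 372 (3.05%) were lower in PU.1 SpiB DKO. Requiring also a mean log2 RPKM above 0 in the naive libraries, as a threshold on level, left 900 of the 1606, 672 higher and 228 lower. The 2 libraries of one group did not overlap those of the other for 6512 genes (53.4%), and this held for every DE gene. The genes that rose were mostly of low abundance: their median level over the 4 libraries was 4.75 CPM, that of the genes that fell was 21 CPM and that of all genes was 24.7 CPM. A rise of more than 2 on the log2 scale was seen for 546 genes and a fall of that size for 49. Leaving out every gene within 10 Mb of Spib, Spi1 or Fcer2a and all of the H2 region left 1528 DE genes, 1193 of them higher. The surplus of rises was smaller with voom and quantile normalization, the method of the study, which called 901 genes higher and 663 lower, that is 57.6% higher against 76.8%. Without PU.1 cKO replicate 2, 813 genes were higher. With 2 libraries against 2 an exact permutation test cannot go below p = 0.333, so the calls rest on the spread that edgeR shares between genes and between the 8 naive libraries.

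**Figure D1:**
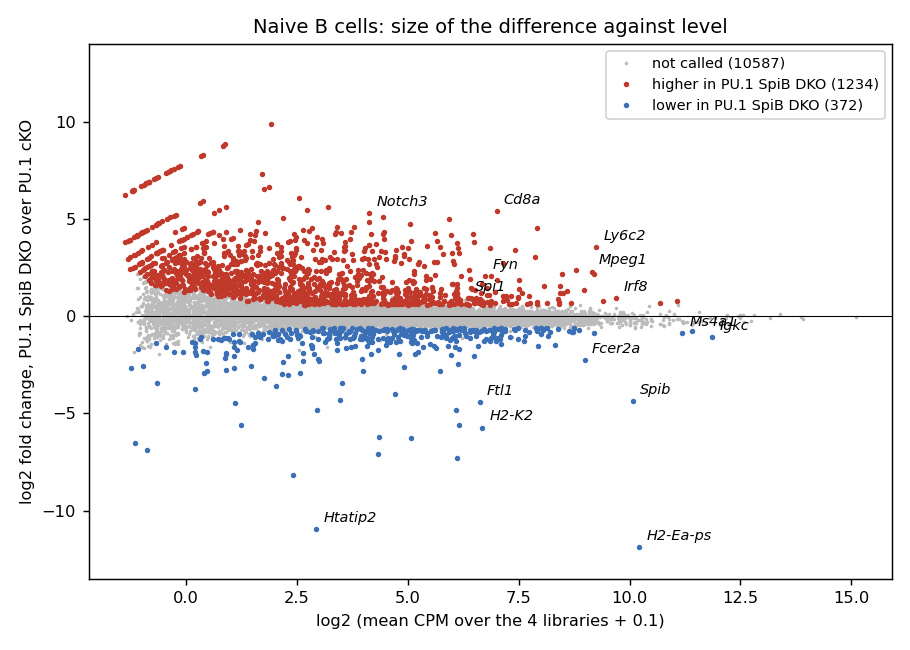
Each point is 1 of the 12193 genes, placed by its mean level over the 4 libraries (x axis, log2 CPM) and its log2 fold change, PU.1 SpiB DKO over PU.1 cKO (y axis). DE genes are red (1234 higher) or blue (372 lower); Spib and the H2 transcripts lie far below 0 and the largest rises are at low to moderate levels.

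Spib fell from 2173 and 1919 CPM in PU.1 cKO to 98.9 and 100.3 CPM in PU.1 SpiB DKO (log2 fold change -4.36, SE 0.13, edgeR adjusted p = 1.34e-07), the gene its label names. The remaining counts can come from exons that the null allele still holds. Spi1 moved the other way: it had 59.4 and 53.15 CPM in PU.1 cKO, against 102.7 and 110.1 CPM in PU.1 SpiB DKO, a rise of 0.92 (SE 0.11, edgeR adjusted p = 0.000563). Control and SpiB KO cells, which keep PU.1, had 155.1 to 174 CPM. Both compared groups carry the same floxed alleles and the same Cre, yet their Spi1 levels differed. Counts per gene do not separate the floxed exon from the rest. From read coverage the paper reports that this exon was fully deleted in naive PU.1 cKO cells but markedly retained in naive PU.1 SpiB DKO cells. The contrast is therefore between 2 groups that differ in Spib, in Spi1 mRNA and, per the paper, in the extent of Spi1 deletion. Mybpc3, a cardiac myosin-binding protein gene adjacent to Spi1, had 390 and 381.1 CPM in PU.1 cKO, against 265.5 and 334.9 CPM in PU.1 SpiB DKO, and did not pass the test (-0.36, edgeR adjusted p = 0.161). In the control and SpiB KO libraries, which lack either the floxed allele or Cre, it had at most 0.648 CPM.

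Of the other Ets factors, 1 of the 13 further genes tested passed, where 13.2% of all genes did. Etv6, a repressor of the family, rose from 16.7 and 15.9 CPM to 25.7 and 30 CPM (0.77, edgeR adjusted p = 0.0123). Elk4 had -0.26 and did not pass (edgeR adjusted p = 0.223). The list as a whole had a median of -0.20, against 0.0053 over all genes.

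Fcer2a, which encodes the low-affinity IgE receptor CD23 and whose regulatory sequences drive Cre in these mice, fell strongly. It had 809 and 873.7 CPM in PU.1 cKO, against 153 and 197.3 CPM in PU.1 SpiB DKO, which is 4.8-fold lower (log2 fold change -2.26, SE 0.14, edgeR adjusted p = 1.83e-05). SpiB KO cells had 439.3 and 461.4 CPM and control cells 1318 and 1476 CPM, so PU.1 SpiB DKO was the lowest of the 4 genotypes. The fall of Fcer2a from PU.1 cKO to PU.1 SpiB DKO (-2.26) was set against that in SpiB KO against control (-1.63). With genotype as the only term in the fit, the difference did not pass (edgeR adjusted p of the difference = 0.27). Control carries the Cre transgene with Cd23 regulatory sequences and SpiB KO does not, so SpiB KO and control differ in more than Spib.

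**Figure D2:**
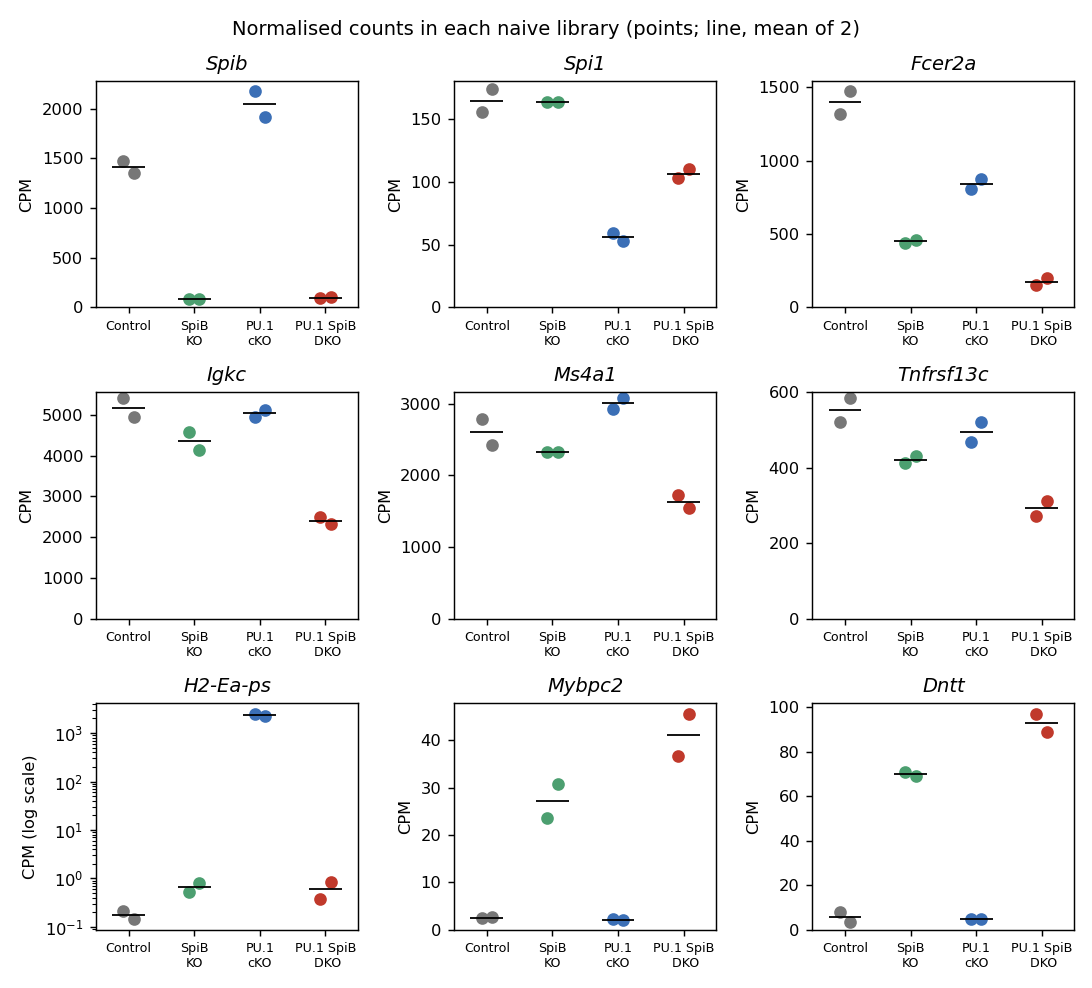
Normalised counts (y axis, CPM; log scale for H2-Ea-ps) of 9 genes in the 8 naive libraries, grouped by genotype (x axis), with a line at the mean of 2. Spib is near 100 CPM in both Spib-/- groups, H2-Ea-ps is high in PU.1 cKO, Igkc, Ms4a1 and Tnfrsf13c are lowest in PU.1 SpiB DKO, and Mybpc2 and Dntt are high in both Spib-/- groups.

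Of the B cell receptor and its co-receptors 3 of 16 tested genes (18.8%) were DE, against 13.2% of all genes, and the median was -0.05. Ms4a1, the surface protein CD20, fell from 2929 and 3086 CPM to 1725 and 1540 CPM (-0.88, SE 0.12, edgeR adjusted p = 0.00127). Cd79a and Cd79b, the signalling chains of the receptor, had log2 fold changes of -0.29 and -0.22 and did not pass. Cd5 and Pirb, inhibitory receptors, rose by 2.67 and 1.04, both from under 5 CPM. In the cascade below the receptor 3 of 33 genes (9.09%) were DE. Fyn, a Src-family kinase, rose from 41.6 and 42.1 CPM to 169.1 and 176.9 CPM (2.05, edgeR adjusted p = 5.87e-06). The adaptor Bank1 fell from 498.7 and 581.3 CPM to 251.1 and 354.8 CPM (-0.83, edgeR adjusted p = 0.0174). Ppp3ca, a catalytic subunit of calcineurin, fell by 0.72, and without PU.1 cKO replicate 2 its value was -0.52 and did not pass. Bcl10 fell short of the size needed, at -0.40.

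Light chain transcripts separated sharply by locus. Igkc, the constant region of the kappa light chain, had 4956 and 5121 CPM in PU.1 cKO, against 2490 and 2312 CPM in PU.1 SpiB DKO (-1.07, SE 0.12, edgeR adjusted p = 0.000366). The variable segments of the same locus, which were examined after the values were seen, moved with it: 79 of 100 tested Igkv segments and 4 of 5 Igkj segments were lower and none was higher, where 3.05% of all genes were lower. The median of the Igkv segments was -1.05, its quartiles were -1.33 and -0.77, and 97 of 100 were negative. Their summed level was 3858 and 3835 CPM in PU.1 cKO, against 1906 and 1652 CPM in PU.1 SpiB DKO. These segments share a locus and paralogous sequence and are not independent of each other.

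Lambda and heavy chain transcripts had smaller values. The 3 Iglc constant regions had a median of 0.07 and none was DE, and of the 3 Iglv segments 1 rose. The ratio of Igkc to the summed Iglc counts was 2.79 and 3.31 in PU.1 cKO, 1.37 and 1.42 in PU.1 SpiB DKO, 3.38 and 4.03 in control and 2.42 and 2.56 in SpiB KO. Ighm, the IgM heavy chain, had 5335 and 5900 CPM against 5617 and 5609 CPM (log2 fold change -0.00, edgeR adjusted p = 0.996), and Ighd, the IgD heavy chain, had -0.50 (edgeR adjusted p = 0.049), less than 1.5-fold. Of 93 Ighv segments 71 were negative, 6 were lower and 2 were higher, with a median of -0.23. In bulk RNA, fewer cells that express a gene and less RNA per cell cannot be told apart. The fall of Igkc was larger than that in SpiB KO against control, which was -0.25 (edgeR adjusted p of the difference = 0.11), as it was for 16 of the Igkv segments. The 84 kappa genes that fell make up 22.6% of the 372 falls. On chromosome 6, which holds the kappa locus, 94 of 687 genes fell, but 10 of the 581 genes (1.72%) outside the locus did.

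**Figure D3:**
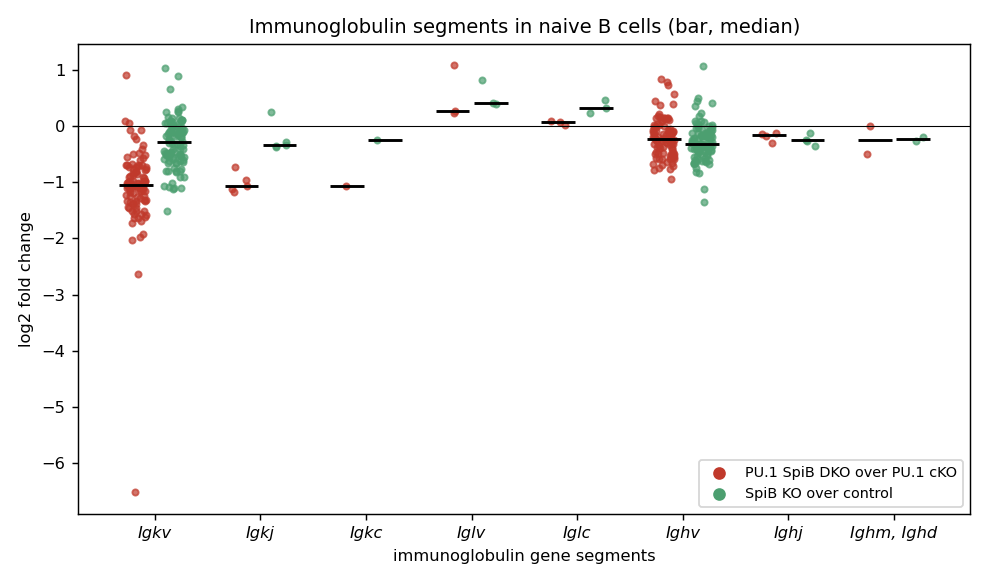
Log2 fold change (y axis) of each tested immunoglobulin segment, by family (x axis), for PU.1 SpiB DKO over PU.1 cKO (red) and SpiB KO over control (green), with a bar at the median. The kappa families centre near -1 in red, with medians of -1.05, -1.06 and -1.07, and the lambda and heavy chain families lie near 0.

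Among the immunoglobulin constant regions as a list, 6 of 12 were DE, 5 of them higher, where 10.1% of all genes were. Ighg3 had 0.382 and 0.82 CPM in PU.1 cKO, against 12.9 and 12.9 CPM in PU.1 SpiB DKO (4.40, edgeR adjusted p = 0.00101). In control and SpiB KO cells Ighg3 lay between 2.35 and 9 CPM, so the PU.1 cKO libraries were the lowest. Igj, the J chain of secreted IgM and IgA, rose by 4.59, with 33.1 and 7.27 CPM in the 2 PU.1 SpiB DKO libraries.

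Receptors through which naive B cells receive survival and microbial signals changed in both directions. In the TNF receptor family and its adaptors 6 of 18 genes (33.3%) were DE, against 13.2% of all genes, with a median of -0.07. Tnfrsf13c, the BAFF receptor, fell from 468.2 and 522.6 CPM to 272.5 and 312.9 CPM (-0.76, SE 0.12, edgeR adjusted p = 0.00279). The adaptor Traf5 fell too (-0.64), whereas Tnfrsf21, Tnfrsf1a and Ltbr rose by 1.79, 2.78 and 3.58 from at most 3.97 CPM in PU.1 cKO and Cd27 by 0.77. Cd40 did not pass, at -0.35 (edgeR adjusted p = 0.161). Of the Toll-like receptors and their partners 6 of 21 (28.6%) were DE. Tlr4, the receptor for LPS, fell from 51.6 and 52.2 CPM to 31.1 and 30.3 CPM (-0.76, SE 0.12, edgeR adjusted p = 0.00309). Tlr3 and Irak3, an inhibitor of Toll-like receptor signalling, also fell, by 1.08 and 0.72, although Irak3 did not pass without PU.1 SpiB DKO replicate 1 (-0.55) or without PU.1 cKO replicate 2 (-0.61). Tlr12 rose from 16.9 and 15.2 CPM to 54.5 and 51.5 CPM (1.72, edgeR adjusted p = 0.000767).

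Of 25 cytokine receptors 9 were higher and none was lower, where 10.1% of all genes were higher, and the median was 0.22. Flt3, the receptor tyrosine kinase of lymphoid and dendritic progenitors, rose from 7.19 and 7.63 CPM to 58.5 and 56 CPM (2.95). Csf2rb and its paralog Csf2rb2, beta chains of the GM-CSF and IL-3 receptor family, rose by 2.83 and 2.80, and Il7r, the interleukin-7 receptor, by 2.52. Of 28 homing receptors and integrins 12 were higher and 2 were lower. Ccr9 rose from 18.5 and 19.3 CPM to 214.1 and 211.5 CPM (3.49, edgeR adjusted p = 0.000281) and Cxcr3 by 2.24. Ccr7, which guides lymphocytes to the lymph node, fell by 0.81. Among 10 Fc and Fc-like receptors, beside Fcer2a, the signalling chain Fcer1g rose by 2.86 and Fcrl5 by 0.94, the latter not passing without PU.1 cKO replicate 2 (0.78).

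Of the transcription factors of B cells 9 of 33 (27.3%) were DE, against 13.2% of all genes. Of these 8 were higher, where 10.1% of all genes were, and the median was 0.03. Pax5, Ebf1, Bcl6 and Irf4 had log2 fold changes of 0.02, -0.13, 0.13 and 0.01 and did not pass. Irf8, the partner of PU.1 at composite elements, rose from 558.7 and 585.9 CPM to 1068 and 1114 CPM (0.93, SE 0.10, edgeR adjusted p = 0.00038). Tcf4, the E protein E2-2 on which pDCs depend, rose from 84.2 and 109 CPM to 181.2 and 218.3 CPM (1.05, edgeR adjusted p = 0.00193). Bhlhe40 rose by 0.83. Klf3, a repressor linked to marginal zone fate, was the member that fell, from 111.4 and 116.8 CPM to 64.6 and 70.7 CPM (-0.75, edgeR adjusted p = 0.00335).

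The genes of pDCs rose together. Of the 20 on the list 18 were higher and none was lower, with a median of 3.00 against 0.0053 over all genes. Siglech, a defining pDC receptor, had 33.3 and 39.9 CPM in PU.1 cKO, against 267.3 and 228.8 CPM in PU.1 SpiB DKO (2.76, edgeR adjusted p = 0.000463). Bst2 rose from 139.3 and 121.1 CPM to 605.5 and 553.7 CPM (2.15), Ly6c2 from 111.1 and 78.1 CPM to 1224 and 1014 CPM (3.56), and the receptor phosphatase Ptprs by 2.94. Together the list held 2013 and 1848 CPM in PU.1 cKO, against 6348 and 6039 CPM in PU.1 SpiB DKO, 2467 and 2266 CPM in control and 5966 and 5152 CPM in SpiB KO. Both Spib-/- groups were thus high and both Spib-intact groups low. In SpiB KO against control 16 of the 20 rose, with a median of 2.56.

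Genes used as markers of T cells, NK cells, macrophages and conventional dendritic cells moved in the same direction. Of 17 T cell genes 8 were higher, where 10.1% of all genes were, and none was lower. Cd8a, a chain of the CD8 co-receptor that dendritic cells can also express, rose from 5.47 and 6.3 CPM to 266 and 232.9 CPM (5.40, edgeR adjusted p = 0.000119), Cd8b1 by 3.19, Cd4 by 2.81 and Cd28 by 3.48, while the defining Cd3 genes stayed at 0 to 20 counts in every naive library. The summed T cell list was 369.4 and 351 CPM in PU.1 cKO, against 916.8 and 957 CPM in PU.1 SpiB DKO. Of 12 NK cell genes 4 were higher, with sums of 186.3 and 84 CPM against 359.8 and 268.4 CPM. Prf1 and Eomes, among these 4, depended on the processing. Prf1 had 0.67, and 0.38 without PU.1 cKO replicate 2. Eomes had 1.07, and 0.55 without PU.1 SpiB DKO replicate 1, and did not pass with voom (0.64). Of 10 macrophage genes 5 rose, among them Cd68 (3.08) and Mpeg1 (2.29), with sums of 565 and 543.1 CPM against 1456 and 1621 CPM, although Csf1r had at most 19 counts in any naive library. Ccr2 was another of the 5 (1.42) but did not pass with the DESeq2 test (1.41). Of 9 conventional dendritic cell genes 5 rose, among them Sirpa (2.78) and Itgax (2.70), with sums of 96.6 and 94.6 CPM against 285.4 and 296.6 CPM. Of 5 red blood cell and stromal genes only Cdh5, an endothelial cadherin, rose (4.33), while Pecam1, which endothelium also expresses, had -0.02. None of 11 neutrophil genes reached the filter. The CD3- B220+ CD138- gate does not remove B220+ pDCs, and the part of such cells in the rises was not tested.

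**Figure D4:**
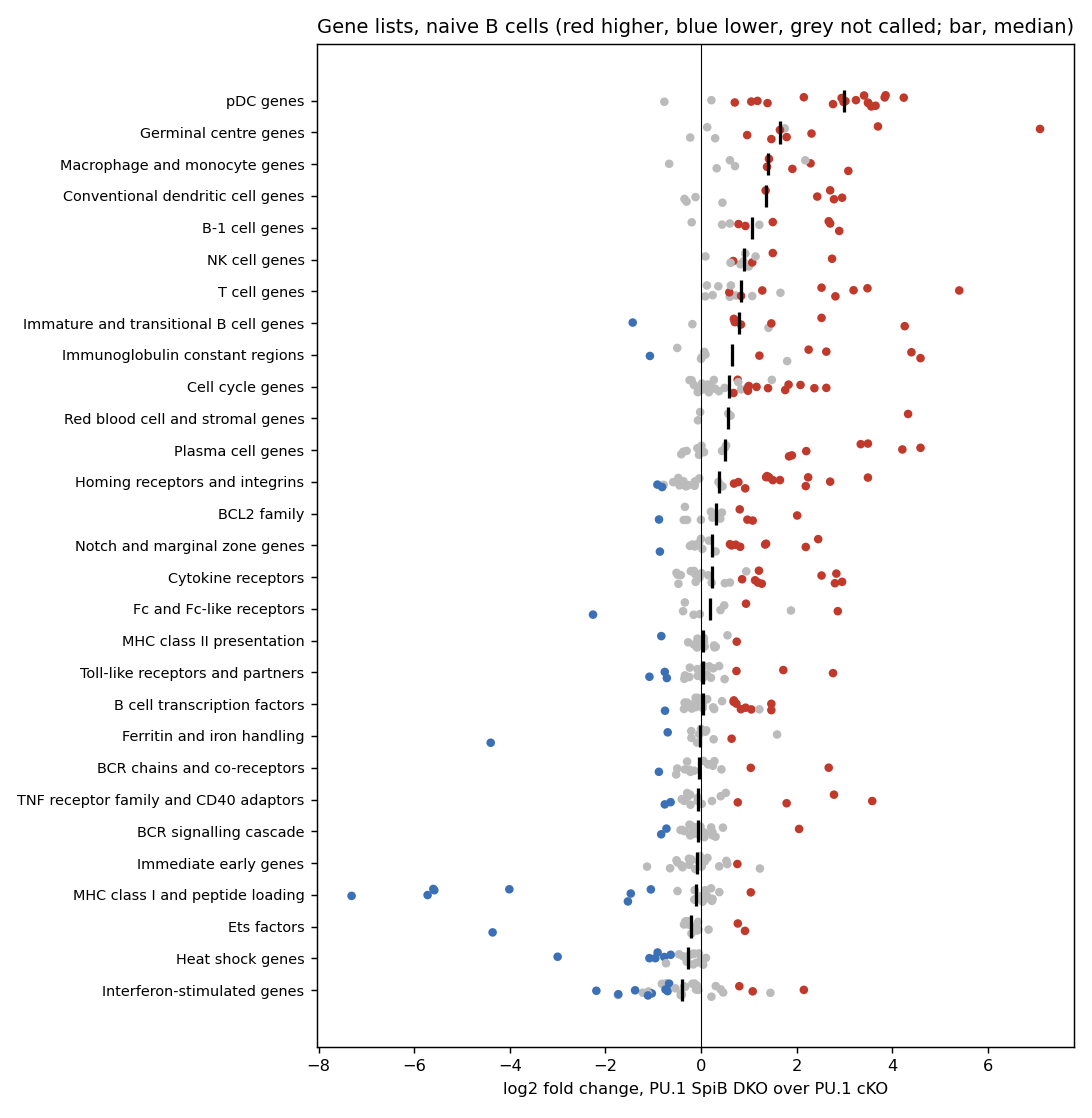
Log2 fold change, PU.1 SpiB DKO over PU.1 cKO (x axis), of every tested member of 29 gene lists (y axis, ordered by median; black bar, median). Red and blue points are DE. The pDC list has 18 red points of 20 and a median of 3.00, and the interferon-stimulated list has the lowest median, -0.41.

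Among DE genes with a mean of at least 5 CPM, the 10 largest rises were of genes with at most 6.3 CPM in PU.1 cKO. Lrrc15, a leucine-rich repeat protein, had 0.318 and 0 CPM in PU.1 cKO, against 9.11 and 13.5 CPM in PU.1 SpiB DKO (6.09). Notch3, a Notch receptor, rose from 1.15 and 0.568 CPM to 33.4 and 34.1 CPM (5.29). The sodium channel subunits Scn2b and Scn3a rose by 5.64 and 5.45, the unannotated Gm20746 by 5.12, the fatty acid desaturases Fads2 and Fads3 by 4.83 and 4.77 and the adhesion molecule Cadm1 by 4.60. Clec12a, an inhibitory lectin of myeloid cells, was among the smallest p values, with 5.85 and 7.06 CPM against 122.8 and 113.6 CPM (4.19, edgeR adjusted p = 3.95e-06). All 10 largest rises were also higher in SpiB KO than in control, by 2.67 to 5.60. Dntt, the terminal transferase of early lymphoid cells, rose from 4.71 and 4.98 CPM to 97.2 and 89.1 CPM (4.26). Of the 10 immature and transitional genes tested 7 were higher, where 10.1% of all genes were. Dntt, Myb, Sox4, Lef1 and Cd93 were among them, and 3 further genes of that list did not reach the filter. Vpreb3, on the same list, fell from 218.3 and 182.5 CPM to 79.6 and 68.8 CPM (-1.43, edgeR adjusted p = 0.000234).

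Lists tied to later B cell stages and to B cell subsets are read against the 10.1% of all genes that were higher and the 3.05% that were lower. Of 17 plasma cell genes 7 were higher and none was lower. Sdc1, which encodes CD138, rose from 3.5 and 3.97 CPM to 41.2 and 34.5 CPM (3.34, edgeR adjusted p = 3.53e-05) although CD138+ cells were gated out, and pDC-associated Ly6c1 and Hid1 on this list rose by 3.49 and 4.21. Prdm1, the master regulator Blimp1, rose by 1.84 but had at most 2.89 CPM in any of the 4 libraries. Of 11 germinal centre genes 7 were higher, with a median of 1.65. Their summed level was 76.4 and 76.2 CPM in PU.1 cKO, against 148.3 and 131.8 CPM in PU.1 SpiB DKO, 154.7 and 162.3 CPM in control and 139.2 and 157.7 CPM in SpiB KO, so PU.1 cKO was the group that stood low. Nuggc, 1 of the 7, had no count in either PU.1 cKO library and reached 1.42 and 0.684 CPM in PU.1 SpiB DKO. It met the filter only through PU.1 SpiB DKO and so could only count as a rise. Bcl6, on the same list, had 0.13 and did not pass. Of 10 B-1 cell genes 6 were higher, among them Cd300lf (2.89) and Rbm47 (2.70). Of 18 Notch and marginal zone genes 8 were higher and 1 was lower. S1pr3 rose by 2.19 and Plac8 by 1.34, and Cd1d1 fell by 0.86.

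Of 32 cell cycle genes 12 were higher, where 10.1% of all genes were, and none was lower, with a median of 0.58. Apart from Ccnd2, the 12 had means of at most 6.14 CPM. Ccna2, the S and G2 phase cyclin, had 1.91 and 1.07 CPM in PU.1 cKO, against 7.08 and 3.11 CPM in PU.1 SpiB DKO (1.76), and Birc5 rose by 2.62. Neither passed without PU.1 SpiB DKO replicate 1 (1.06 and 1.84), without PU.1 cKO replicate 2 (1.41 and 2.08) or with voom (1.26 and 1.88). Ccnd2, the D-type cyclin of B cells, rose from 82.3 and 67 CPM to 109.6 and 129.2 CPM (0.68), and its change fell under the 1.5-fold threshold without PU.1 cKO replicate 2 (0.54) or PU.1 SpiB DKO replicate 2 (0.55). In the BCL2 family 4 of 14 genes were higher and 1 was lower, and the pro-apoptotic Bbc3 rose by 0.97 while Pmaip1 fell by 0.88, the latter not passing without PU.1 cKO replicate 2 (-0.72).

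Heat shock and interferon-stimulated genes had the lowest medians of the lists. Of 20 heat shock genes 6 were lower, against 3.05% of all genes, and none was higher, with a median of -0.28. Hspa8, the constitutive HSP70 chaperone, fell from 303.2 and 360.9 CPM to 185 and 168.8 CPM (-0.91, edgeR adjusted p = 0.00125), and its co-chaperones Dnajb1 and Dnaja1 by 1.08 and 0.96. Of 34 interferon-stimulated genes 8 were lower and 3 were higher, with a median of -0.41. Oas1a, a sensor of double-stranded RNA, fell from 29.8 and 20.9 CPM to 4.25 and 6.74 CPM (-2.19) and Ifi27l2a by 0.70, whereas Bst2, which is also on the pDC list, and Ly6a rose. Ifi27l2a lay under the 1.5-fold threshold without PU.1 cKO replicate 1 (-0.55). Of 22 immediate early genes 1 was DE: Egr2 had 0.76 (edgeR adjusted p = 0.145), a call that was lost in 7 alternatives: with DESeq2 size factors, with voom, and without either SpiB KO library, either PU.1 SpiB DKO library or PU.1 cKO replicate 2 (0.47). Ier5 and Ier2 had -0.49 and -0.41, less than 1.5-fold. The DE share of the immediate early list, 4.55%, was under the 13.2% of all genes.

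Of 17 MHC class II genes 2 (11.8%) were DE, near the 13.2% of all genes. H2-Eb2 rose by 0.75, and March1, a ligase that removes class II from the surface, fell by 0.83, though not without PU.1 cKO replicate 2 (-0.57). Of 25 class I and peptide loading genes 8 were lower, against 3.05% of all genes, and 1 was higher, and all 9 are H2 genes. H2-Q7 went against the rest, with 91.8 and 93.2 CPM in PU.1 cKO, against 201 and 178.2 CPM in PU.1 SpiB DKO (1.04), while H2-Q1 fell by 4.01.

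Genes around Spib formed a cluster of DE genes. Within 1 Mb of Spib (chromosome 7, 44525995 to 44532087, GRCm38), leaving Spib out, 27 of 66 genes (40.9%) were DE, 20 higher and 7 lower, against 13.2% of all genes. Within 10 Mb it was 39 of 127. In SpiB KO against control 28 of the same 66 genes were DE. With genotype as the only term in the fit, the change differed between the 2 contrasts for none of the 127 at an adjusted p below 0.15. Both Spib-/- groups carry the same altered allele and the DNA linked to it, which cannot be told apart from the loss of SpiB. Mybpc2, a skeletal muscle myosin-binding protein gene adjacent to Spib, had 2.35 and 1.96 CPM in PU.1 cKO, against 36.7 and 45.6 CPM in PU.1 SpiB DKO (4.25, edgeR adjusted p = 5.87e-06). Pold1, the neighbour on the other side, fell from 162.8 and 162.5 CPM to 67.3 and 69.4 CPM (-1.25, edgeR adjusted p = 5.76e-05). Ftl1, the ferritin light chain 0.93 Mb away, fell from 188.9 and 185.9 CPM to 14.3 and 3.63 CPM (-4.40), the lowest value among 12 iron-handling genes, of which Slc25a37 also fell (-0.70) and Tfrc rose (0.64). Htatip2 was at 235 and 241 counts in PU.1 cKO and at 0 in both PU.1 SpiB DKO libraries, at least 168-fold lower with a floor of 3 counts over the group. Klk1, on the pDC list, also lies in this stretch (3.24). Around Spi1 1 of 28 genes within 1 Mb was DE, and around Fcer2a none of 25. Mybpc2, Pold1 and Klk1 were picked out after their values were seen.

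**Figure D5:**
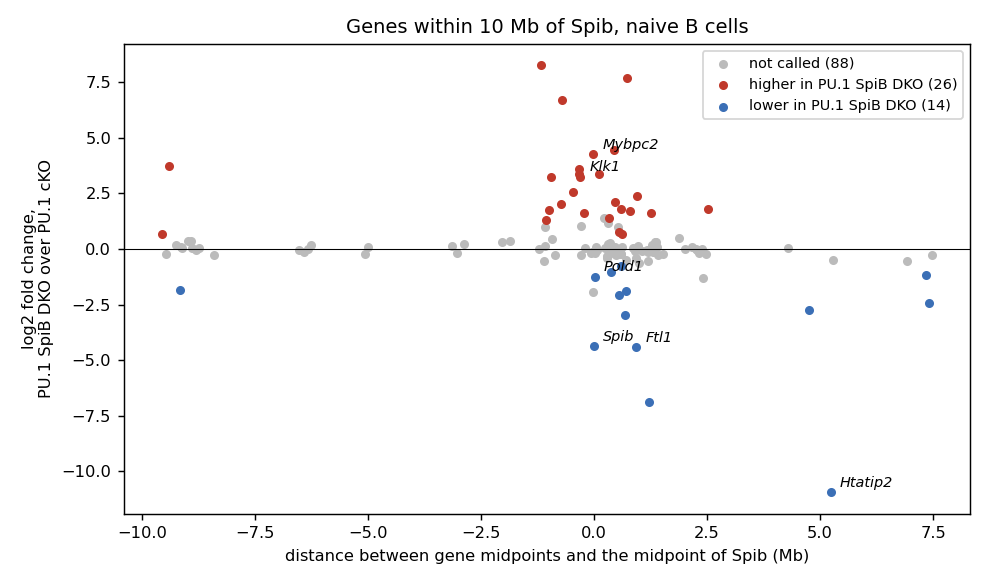
Log2 fold change, PU.1 SpiB DKO over PU.1 cKO (y axis), of the genes within 10 Mb of Spib against the distance between gene midpoints in Mb (x axis). DE genes, red and blue, crowd within 1 Mb of Spib, where 27 of 66 are DE with Spib left out.

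Promoters of 4 genes described above are shown because they hold an Ets motif and stand for both directions of change: Fcer2a and Bank1, which fell, and Cd8a and Flt3, which rose. Each is the 250 bases before the start site in the RefSeq table for GRCm38, on the strand of the gene, with matches on either strand in capitals.
Fcer2a (chr8:3694175-3694424, minus strand): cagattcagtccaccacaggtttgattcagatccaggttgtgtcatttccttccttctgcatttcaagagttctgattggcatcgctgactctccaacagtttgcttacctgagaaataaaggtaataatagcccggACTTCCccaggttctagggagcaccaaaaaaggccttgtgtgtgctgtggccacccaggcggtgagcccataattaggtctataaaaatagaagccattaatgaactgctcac
Bank1 (chr3:136326067-136326316, minus strand): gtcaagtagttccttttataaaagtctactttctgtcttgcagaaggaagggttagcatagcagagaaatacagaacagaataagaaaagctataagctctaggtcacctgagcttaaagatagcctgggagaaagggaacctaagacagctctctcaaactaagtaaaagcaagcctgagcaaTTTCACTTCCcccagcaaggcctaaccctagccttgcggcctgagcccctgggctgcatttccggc
Cd8a (chr6:71373177-71373426, plus strand): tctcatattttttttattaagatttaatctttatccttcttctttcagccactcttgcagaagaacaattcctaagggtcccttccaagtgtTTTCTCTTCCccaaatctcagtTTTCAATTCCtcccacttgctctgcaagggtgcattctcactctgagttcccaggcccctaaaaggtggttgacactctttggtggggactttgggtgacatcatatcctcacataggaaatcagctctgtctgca
Flt3 (chr5:147400490-147400739, minus strand): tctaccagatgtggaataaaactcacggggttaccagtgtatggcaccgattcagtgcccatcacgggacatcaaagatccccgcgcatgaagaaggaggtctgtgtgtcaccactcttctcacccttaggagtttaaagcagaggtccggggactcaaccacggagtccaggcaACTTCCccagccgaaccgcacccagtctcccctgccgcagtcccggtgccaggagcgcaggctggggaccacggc
The capitals mark a match to GGAAGT, letters of the Ets motif of PU.1 and SpiB, in Fcer2a and Flt3, read there from the other strand as ACTTCC, and the composite Ets-IRF element GGAANNGAAA in Cd8a, where it occurs 2 times. In Bank1 a single stretch matches both, since GGAAGT is also the start of GGAANNGAAA when NN is GT.

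Across the 9280 genes with a promoter in the table, GGAAGT was found in 24.4%, against 18.9% of 941 genes that rose and 16.2% of 198 genes that fell. The longer GAGGAAGT was in 2.66% of all, 3.61% of those that rose and 1.52% of those that fell, and GGAANNGAAA in 2.12%, 2.66% and 2.53%. A match describes these letters only and is not evidence of binding. The promoters of Spib and Tnfrsf13c held none of the 3 motifs. Spi1, Ms4a1, Tlr4 and Igkc have no entry in the table.

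SpiB KO was also compared with control, in cells that keep PU.1. These 4 libraries enter the fold changes above only through the shared spread and scaling. In SpiB KO against control 1194 genes (9.79%) were DE, 749 higher (6.14%) and 445 lower (3.65%). Of the 1234 genes that rose in this comparison, 604 also rose there, which is 48.9% of the first list and 80.6% of the second. The falls overlapped less: 68 genes, which is 18.3% of the 372 and 15.3% of the 445. Across genes the log2 fold changes of both contrasts had r = 0.657 and rho = 0.411, a description over genes that are not independent and that share the Spib allele. The difference between both contrasts was DE at an adjusted p below 0.15 for 119 genes (0.976%). That count was unstable: it was 1409 with the replicate number as a block, 432 with DESeq2 and 1050 without control replicate 1, the library with 3.62% of its counts on the ribosomal precursor Rn45s. It was 224 without control replicate 2, 49 and 40 without PU.1 cKO replicate 1 and 2, 35 and 44 without SpiB KO replicate 1 and 2, and 45 without PU.1 SpiB DKO replicate 2. The genes with a difference included Fyn (2.05 here, 0.99 in SpiB KO), Clec12a (4.19 and 2.11), Sdc1 (3.34 and 1.29) and the H2 transcripts. Sdc1 had 670 and 655 counts in PU.1 SpiB DKO and 638 and 614 in SpiB KO. It had 55 and 63 in PU.1 cKO and 255 and 157 in control, so PU.1 cKO was the group that stood low.

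The same pair of genotypes was compared after culture. In CD40L + IL-4 525 of 12251 genes (4.29%) were DE, 290 higher (2.37%) and 235 lower (1.92%), and in LPS + IL-4 1520 of 12189 (12.5%), 1074 higher (8.81%) and 446 lower (3.66%). With the replicate block the CD40L + IL-4 count was 841. It was 198 without PU.1 cKO replicate 2, 222 without PU.1 SpiB DKO replicate 2 and 258 without PU.1 cKO replicate 1 of that culture. Of the naive rises that were also tested in CD40L + IL-4, 106 of 925 (11.5%) were higher there too, which is 48% of the 221 rises of that culture among the genes tested in both, and of the falls 70 of 355 (19.7%) were lower, which is 31.2% of 224. For LPS + IL-4 it was 260 of 910 rises (28.6%), or 27.7% of 940, and 82 of 352 falls (23.3%), or 22% of 372. Tested with no level required in culture, the effect itself differed between naive cells and CD40L + IL-4 for 665 genes (5.45%). The count was 1202 with the replicate block. It was 412 and 438 without PU.1 cKO replicate 2 and 1 of the naive cells and 438 without PU.1 SpiB DKO replicate 2. Fcer2a, which fell by 2.26 in naive cells, had 0.06 in CD40L + IL-4 (edgeR adjusted p of the difference = 4.8e-05) and -1.51 in LPS + IL-4. Igkc had 0.12 and 0.04 in the cultures, where the Igkv segments had medians of 0.01 and 0.02. Tlr4 was lower in both cultures (-0.97 and -0.62). Tnfrsf13c and Ms4a1 were lower in CD40L + IL-4 (-0.80 and -1.36) but not DE in LPS + IL-4, where their values of -0.54 and -0.35 were less than 1.5-fold. On the pDC list 1 of 12 tested genes was higher in CD40L + IL-4 and 2 were lower, with a median of 0.55. H2-Ea-ps remained high in PU.1 cKO in both cultures (-10.11 and -14.84).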

How the data were processed

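RNA-seq of naive lymph node B cells, and of the same genotypes after culture, was analysed from the raw counts per gene deposited by the authors. According to the sources, the authors aligned reads with Subread to GRCm38/mm10, kept uniquely mapped reads and counted RefSeq exons with featureCounts. Versions and the strand setting are not given in the sources used here, so overlapping and antisense genes may share reads. The authors also deposited log2 RPKM values, used only for 1 alternative. Library totals of the 4 compared libraries were 15861951 to 17594007 counts. Entries without a gene symbol numbered 517 and held 0.147% of counts.

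Genes with at least 0.5 CPM in 2 of the 4 compared libraries were fitted with the 8 naive libraries in edgeR 4.0.16 (R 4.3.3; TMM, quasi-likelihood, genotype as the only term), with 4 residual degrees of freedom. A gene was called at a Benjamini-Hochberg adjusted p below 0.15 and over 1.5-fold, and differences between contrasts at the adjusted p alone. CPM used plain totals in the filter and TMM-scaled totals for the values printed, with no correction for length. Alternatives used limma 3.58.1 (voom) and DESeq2 1.42.0. On simulated counts for 12193 genes, 158 of 200 genes changed 2-fold were recovered (79%), with 28 false calls. The changed genes were not drawn from the lowest levels and the libraries were simulated as independent, so this share may not hold for the calls above. Libraries are biological replicates per the methods. Same-numbered libraries deviated together in all 6 genotype pairs (correlations 0.108 to 0.274), so the replicate number was used as a block in an alternative. Whether a number marks a shared day is not given in the labels.

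Members and gene lists were chosen with earlier results of these data known. Named were Spi1, Spib, Fcer2a and Mybpc3, the 10 largest rises and falls with non-overlapping libraries and a mean of at least 5 CPM, the 10 smallest p-values, and the 4 smallest p-values in each list, with the most abundant member of a list that had no call. Bcl6, Ccr7, Cd1d1, Cd4, Cd27, Cd40, Cd79a, Cd79b, Cd93, Ebf1, H2-Q7, Ighd, Ighm, Irf4, Klk1, Lef1, Mybpc2, Pax5, Pold1, Prdm1, Siglech, Sox4, Tlr3, Traf5, the kappa segments and the library checks were chosen after their values were seen. Gene positions and promoters come from RefSeq tables for GRCm38. Promoters matched 88 of the 127 named genes. Some genes that the naming rule selects are not reported here.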

Additional observations from a re-analysis of the deposited data

Results flagged for a closer look

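The log2 fold change of PU.1 SpiB DKO over PU.1 cKO, groups that differ in Spib and also in Spi1 mRNA, was set against that of SpiB KO over control, which are other libraries, as a difference of log2 fold changes in edgeR at an adjusted p below 0.15. SpiB KO and control also differ in Cre and in floxed Spi1. Among the named genes the log2 fold change was different for 21. Where the difference was negative it was -13.78 for H2-Ea-ps, -9.27 for H2-M2, -7.75 for Gm8815, -7.56 for H2-Q2, -7.07 for Gm11127, -6.48 for Rps15a-ps8 and -5.93 for H2-Q10. It was further -5.08 for H2-K2, -4.58 for Gm8909, -4.57 for H2-Q1, -0.82 for Igkc and -0.77 for Klf3. Where it was positive it was 8.19 for Nuggc, 3.84 for Ighg3, 2.08 for Clec12a, 2.05 for Sdc1, 1.55 for Csf2rb, 1.53 for Pirb and 1.20 for Ptprs. Nuggc had no count in either PU.1 cKO library and Ighg3 was low there, so the sizes for both rest on values near the floor. Sdc1 was lower in PU.1 cKO (55 and 63 counts) than in control (255 and 157 counts). Further positive values were 1.06 for Fyn and 0.93 for Spi1.

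The log2 fold change of PU.1 SpiB DKO over PU.1 cKO in naive cells was set in the same way against that after CD40L + IL-4, again with no library in common, and it was different for 48 of the named genes reported here. The test took the 12193 genes of the naive filter, of which 11459 also passed the filter in that culture. It required no level in culture, so a difference can rest on a gene near the floor there. Naive cells minus cultured cells gave -7.67 for H2-M2, -2.33 for Fcer2a, -1.36 for Dnaja1, -1.19 for Igkc, -1.0 for Dnajb1, -0.85 for Ier2 and -0.72 for Klf6. Negative values were further found, with -0.62 for Slc25a37. On the positive side, naive minus cultured cells gave 5.89 for Cdh5, 5.65 for Cadm1, 5.62 for Notch3, 5.19 for Fads2, 4.33 for Scn3a, 4.18 for Fads3 and 3.77 for Hid1. Larger in naive cells were likewise 3.70 for Igj, 3.65 for Cd28, 3.12 for Ly6c1, 3.10 for Cd5, 2.96 for Mpeg1, 2.85 for Ccr9 and 2.80 for Ly6c2. Positive differences included 2.78 for Sdc1, 2.63 for Cd68, 2.60 for Lefty1, 2.59 for Birc5, 2.36 for Ptprs, 2.10 for Rbm47 and 1.96 for Bst2. The same sign held with 1.92 for Siglecg, 1.89 for Ccna2, 1.86 for March1, 1.69 for Tbx21, 1.68 for Sirpa, 1.65 for Fndc3b and 1.59 for Fyn. On the positive side, naive minus cultured cells gave 1.42 for Tcf4, 1.39 for Spi1, 1.34 for Plac8, 1.24 for Cd44, 1.22 for Plxnb2, 1.14 for Spib and 1.07 for Ccnd2. Larger in naive cells were likewise 1.07 for Bbc3, 1.001 for Cdk1, 0.91 for Ctsh, 0.85 for Etv6 and 0.70 for Irf8. The cause of these differences was not tested.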

How the results depend on the processing

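With voom and quantile normalization 663 genes were lower, and with an RPKM threshold added to the CPM filter 900 genes were DE, 672 higher and 228 lower, where 226 genes (98 of them DE) had no RPKM value and could not be called. Leaving out 1 naive library gave 1080 to 1747 DE genes, 813 to 1338 higher and 267 to 425 lower. DESeq2 called 1389 genes, 1365 of them shared with the same direction, and voom 1564, 1243 of them shared. A replicate block gave 1798 DE genes and changed no call among the 127 named genes. It moved the other counts: to 1409 for the difference from SpiB KO over control, 841 for CD40L + IL-4 and 1202 for the difference between naive cells and CD40L + IL-4. Those counts were 119, 525 and 665 without it. At an adjusted p below 0.05 they were 41, 219 and 378, DESeq2 gave 432 for the first, and leaving out 1 library gave 35 to 1050, 198 to 607 and 412 to 726. For LPS + IL-4 that range was 1022 to 1603.

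Single genes turned in few settings: Pecam1 was 0.036 with voom, 0.20 without PU.1 SpiB DKO replicate 1, -0.28 without PU.1 SpiB DKO replicate 2 and 0.19 without PU.1 cKO replicate 2, and Hba-a2 and Hbb-bs were -0.22 and -0.17 without PU.1 cKO replicate 1 and 2.89 and 2.21 without PU.1 cKO replicate 2. Without PU.1 cKO replicate 2, 19 of the 127 named genes no longer passed and 2 newly passed, the most of any alternative. Why the counts moved was not tested. Of the rises, 633 (51.3%) had a mean under 5 CPM, where 2 libraries a group limit the precision most.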
